A study of Mus musculus with 2 samples.

Results

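A set of 10 antigen presentation genes was examined in an atlas of accessible chromatin of activated regulatory T cells. Of these, 6 serve MHC class I presentation (H2-K1, H2-D1, B2m, Tap1, Tap2 and Nlrc5) and 4 serve MHC class II presentation (Ciita, H2-Aa, H2-Ab1 and H2-Eb1). They were chosen by name from the 21938 protein-coding genes of GENCODE M21 on the mouse build mm10. A region belonged to a member when its strongest summit lay in the gene body, or when the member held the nearest protein-coding transcription start site (TSS) within 100 kb of that summit. By this rule the members held 22 of the 26090 merged regions of the list that passed a threshold on the irreproducible discovery rate (IDR), the expected share of peaks that would not recur between the inputs compared.

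ATAC-seq, in which a transposase cuts and tags accessible DNA, was applied to activated regulatory T cells of male adult mice aged 4 months. The mice carried the alleles Foxp3CreERT2, a tamoxifen-dependent Cre recombinase under the control of Foxp3, and Rosa26YFP, a fluorescent reporter, and the labels trace the primary cells to a hematopoietic cell of the bone marrow. The 2 libraries are technical replicates 1 and 2 of biological replicate 1, and they form a single group with no control. The deposited peak lists describe both libraries together, so no value below has a replicate or an error, and the read depth is unknown. The sources used here do not state how the cells were activated or sorted, whether tamoxifen was given, or how many mice were used.

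Class I molecules consist of a heavy chain, such as those of H2-K1 and H2-D1, and the invariant light chain of B2m, and nearly every nucleated cell displays them. Proteasomes cut cytosolic proteins into peptides, the Tap1 and Tap2 transporter pumps these into the endoplasmic reticulum, and the loaded complexes are shown to CD8 T cells. Class II molecules are dimers of an alpha and a beta chain that show peptides from endosomes to CD4 T cells, and in mice they are mostly carried by B cells, dendritic cells, macrophages and thymic epithelium. Both classes share an upstream promoter module of S, X1, X2 and Y boxes, bound by the RFX complex, CREB-type factors and NF-Y. The coactivators Nlrc5, for class I, and Ciita, for class II, bind no DNA themselves and act through that complex.

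The X2 and Y boxes of this module are shown first, because they recur under the summits of member regions of both classes. In the 6 sequences below, read 5′ to 3′ on the strand given, the capitals mark an X2 box (TGACG) and a Y box (CCAAT, here as its reverse complement ATTGG). All were read from the RefSeq sequence of GRCm38.p6, the assembly of mm10.
H2-K1 promoter, chr17:34000359-34000388, minus strand: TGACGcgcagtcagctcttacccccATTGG
H2-D1 promoter, chr17:35262993-35263022, plus strand: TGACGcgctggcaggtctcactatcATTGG
B2m promoter, chr2:122147609-122147638, plus strand: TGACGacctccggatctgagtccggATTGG
H2-Aa promoter, chr17:34287867-34287897, minus strand: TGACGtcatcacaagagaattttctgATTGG
H2-Aa upstream region, chr17:34296266-34296295, plus strand: TGACGcttccttgctctctattcctATTGG
H2-Eb1 upstream region, chr17:34304930-34304959, minus strand: TGACGaagcagaatttagcctcttgATTGG
The 4 promoter copies run in the direction of their gene, and the 2 upstream copies run against it. The 2 boxes are 20 bases apart in 5 of the 6 sequences and 21 apart in the H2-Aa promoter, where a second X2 box on the opposite strand overlaps the first. The H2-D1 copy lies in an annotated 5′ UTR of H2-D1. The centre of each copy lies 3.5 bp (H2-D1) to 43.5 bp (H2-Aa upstream) from the summit of its region.

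The other promoter stretches that the results turn on are those of H2-Ab1 and H2-Eb1, which lie in thresholded regions, and of Ciita, which neither the thresholded nor the pseudoreplicated list covers. In H2-Ab1 and H2-Eb1 the capitals mark letter matches to an X1 box (AGNAACNG) and to Y boxes on either strand. In Ciita they mark a gamma-activated site (GAS, TTCNNNGAA), an element through which interferon-gamma acts on genes, and an interferon-stimulated response element (ISRE, GAAANNGAA), the element bound by interferon regulatory factors.
H2-Ab1 proximal, chr17:34263093-34263191, plus strand: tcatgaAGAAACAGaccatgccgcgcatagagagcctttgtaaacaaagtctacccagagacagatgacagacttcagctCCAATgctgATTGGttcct
H2-Eb1 proximal, chr17:34305767-34305841, plus strand: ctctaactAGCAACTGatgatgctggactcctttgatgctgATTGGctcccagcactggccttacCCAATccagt
Ciita before its downstream TSSs, chr16:10489611-10489725, plus strand: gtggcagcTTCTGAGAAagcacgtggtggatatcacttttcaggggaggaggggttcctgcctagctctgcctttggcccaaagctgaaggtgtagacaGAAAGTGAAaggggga
These stretches end 18, 26 and 21 bp before a TSS of H2-Ab1, H2-Eb1 and Ciita respectively. No TGACG stands in the H2-Ab1 or H2-Eb1 promoter windows searched, from 250 bp before to 50 bp after their 5′-most protein-coding TSS. The X1 match and the first Y box begin at −110 and −36 from that TSS in H2-Ab1, and at −92 and −59 in H2-Eb1. Matches to the X1 letters occur in 16.97% of all promoter windows. Whether either match is the X1 box of the module was not tested. The search took exact letters, so variants of the boxes were not marked. The printed H2-Ab1 stretch holds TGACA, which differs from TGACG in its last letter, between the marked X1 match and the Y boxes. The missing TGACG therefore does not show that either promoter lacks the module.

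In the thresholded list, 5 of the 6 class I members and 3 of the 4 class II members had a promoter region, meaning a region within 1000 bp of a TSS of one of the gene's protein-coding transcripts. Of all protein-coding genes, 48.2% had one. The exceptions were Tap2 of class I and Ciita of class II. At least 1 region by the rule was held by 5 of the 6 class I members and by all 4 class II members, against 56.2% of all protein-coding genes. Class I members held 15 regions, 2.5 per gene, of which 6 were promoter regions, and class II members held 7 regions, 1.75 per gene, of which 4 were. Over all protein-coding genes the mean was 1.25 regions and the median 1.

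**Figure D1:**
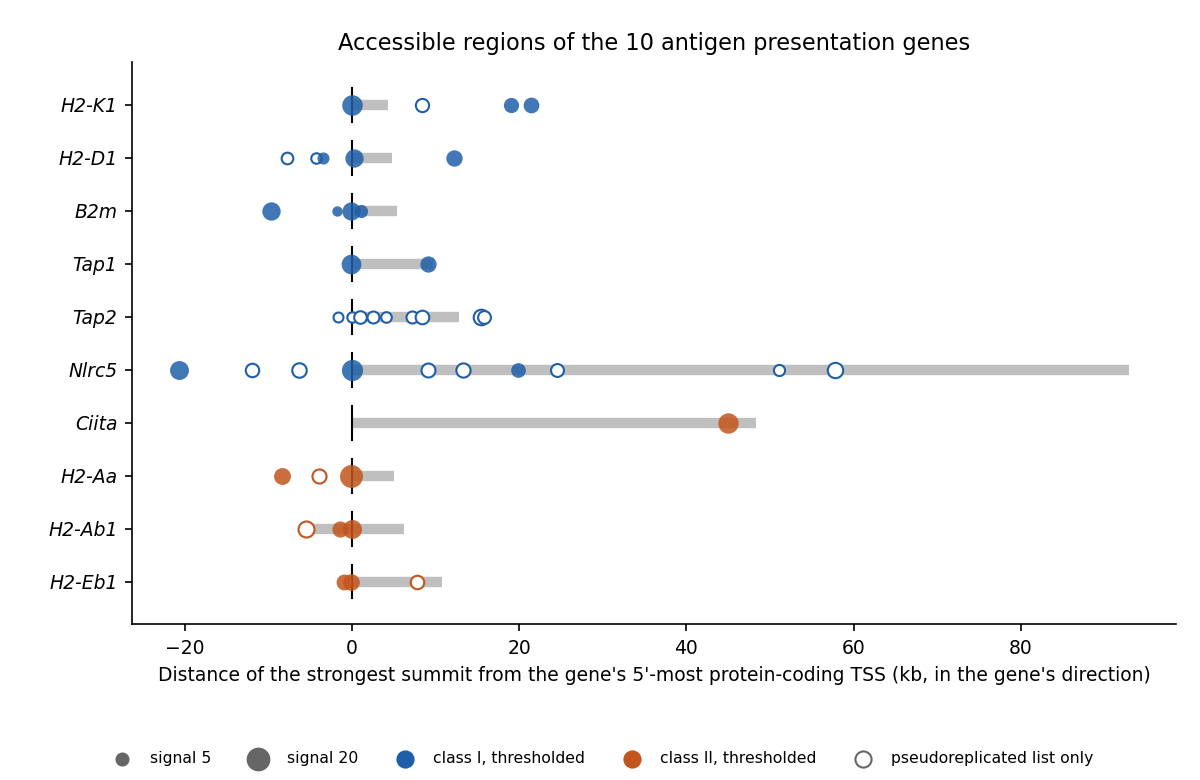
Distance of each region's strongest summit from the 5′-most protein-coding TSS of its gene, in kb and in the direction of transcription, for the 10 members. Grey bars are gene bodies, filled circles are thresholded regions, white circles are regions of the pseudoreplicated list alone, and circle area rises with the signal value; 8 members have a filled circle within 1000 bp of the TSS line, Tap2 has white circles only, and Ciita has a single region near its 3′ end.

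The heavy chain genes each had 3 regions. H2-K1 (chr17:33996017-34000347, minus strand) encodes the classical heavy chain H-2K, and its promoter region, 33999622 to 34000673, had signal 17.9 and −log10 p 260. The signal is the peak caller's enrichment value and the −log10 p its strength of evidence, both as deposited. This region held 2 summits, the strongest 49 bp upstream of the nearest of the gene's 8 annotated protein-coding TSSs. The other 2 H2-K1 regions lay past the gene's 3′ end, 16200 and 18573 bp from a TSS, with signals of 9.06 and 9.84.

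H2-D1 (chr17:35262730-35267499, plus strand) encodes the classical heavy chain H-2D. Its promoter region, 35262605 to 35263419, had signal 13.8 and −log10 p 180, with the summit 274 bp inside the gene. A weaker region lay 3447 bp upstream (signal 5.13) and another 8870 bp from the nearest TSS, beyond the 3′ end (signal 10.7). The H2-K1 promoter region thus had the higher signal and −log10 p of this heavy chain pair. Class I heavy chains are close copies of each other, and 16.05% of the 31-base words of the H2-K1 promoter region and 15.3% of those of the H2-D1 promoter region recur exactly elsewhere in the genome. The treatment of reads that match several places is not stated in the sources used here.

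B2m (chr2:122147686-122153083, plus strand) encodes the light chain that pairs with class I heavy chains. With 4 regions it held the most of any member in the thresholded list. Its promoter region, 122147362 to 122148197, had the highest −log10 p of all 22 member regions, 297, at a signal of 13.7, with its summit 88 bp upstream of the only annotated protein-coding TSS. By −log10 p it stood above 86.7% of the promoter regions of the list, and by signal above 39.7%. The strongest B2m region by signal, 13.9, lay 9631 bp upstream, where the −log10 p was 49.998. A region in the gene's intron had a signal of 6.35, and its edge reached within 1000 bp of the TSS, so it counts as the other B2m promoter region. At 1772 bp upstream, a region had a signal of 3.39, the lowest of the 22. None of the 31-base words of these 4 regions has an exact copy elsewhere.

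The transporter subunits differed in the thresholded list. Tap1 (chr17:34187553-34197225, plus strand) had a promoter region of 1000 bp, 34186883 to 34187882, with 3 summits, a signal of 16.2 at a −log10 p of 155. This region is shared with Psmb9, which encodes an immunoproteasome subunit and has a TSS on the opposite strand 38 bp from a Tap1 TSS, so the peak cannot be credited to either gene alone. The other Tap1 region, at 34196520 to 34196863 in a coding exon, had a signal of 10.6, and its nearest TSS was that of Psmb8, another immunoproteasome gene, 1048 bp away.

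Tap2 (chr17:34203527-34216321, plus strand) had no thresholded region, and the nearest lay 5043 bp from its 5′-most TSS. The pseudoreplicated list, which is longer and less strict, held 9 regions for Tap2, 3 of them promoter regions. These 3 had signals of 3.34, 5.73 and 4.997 with IDRs of 0.388, 0.166 and 0.112. The 9 regions ranged in signal from 2.97 to 9.63, with the highest past the 3′ end of the gene. In that list, 5.50% of all protein-coding genes held 9 or more regions.

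Nlrc5 (chr8:94434356-94527272, plus strand) encodes the class I coactivator. Its promoter region, 94434057 to 94434546, had the highest signal of the class I members, 19.04, and a −log10 p of 158, with the summit 46 bp upstream of a TSS. A region 20638 bp upstream, 94413391 to 94414194, had signal 14.9 and −log10 p 148. Its summit window of 100 bp on either side held 2 GAS matches, where 5.95% of all summit windows hold at least 1. An intronic region at 94453846 to 94454671 was weaker, with a signal of 8.41. The pseudoreplicated list added 7 regions for Nlrc5, with signals from 4.11 to 9.29.

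Ciita (chr16:10480059-10528418, plus strand) encodes the class II coactivator, whose activity sets whether a cell makes class II molecules. It had 1 region, in an intron near the 3′ end of the gene (10524904 to 10525244), with signal 17.5 and −log10 p 84.4. The nearest TSS of another gene, Dexi, lay 18000 bp from that summit. No region lay near any of the 6 annotated protein-coding TSSs of Ciita, which stood 35121 to 44845 bp from the nearest region in the thresholded list and equally in the pseudoreplicated list. The GAS and the ISRE printed above begin at −127 and −36 from the TSS at 10489746, in sequence covered by neither of these lists. GAS matches occur in 8.39% and ISRE matches in 8.47% of all promoter windows.

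Unlike Ciita, the 3 class II chain genes had promoter regions, and the strongest of each gene had its summit within 100 bp of a TSS. H2-Aa (chr17:34282744-34287823, minus strand) encodes the alpha chain of I-A. Its promoter region, 34287656 to 34288115, had the highest signal of all 22 regions, 22.6, with a −log10 p of 125 and a summit 96 bp upstream. It stood above 87.1% of promoter regions by signal and above 48.2% by −log10 p. A region 8414 bp upstream, 34295918 to 34296482, had signal 11.5 and −log10 p 49.0, and it carries the upstream X2 and Y pair printed above.

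H2-Ab1 (chr17:34257689-34269419, plus strand) encodes the beta chain of I-A. Its promoter region, 34263013 to 34263619, gave a signal of 15.03 and −log10 p of 89.0, with the summit 56 bp upstream of a protein-coding TSS. A region 1450 bp upstream of that TSS, 34261613 to 34261890, had a signal of 10.4. The annotated gene begins further upstream because of a non-coding transcript, and only the pseudoreplicated list had a region there (34257641 to 34257974, signal 10.2, IDR 0.234).

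H2-Eb1 (chr17:34305867-34316674, plus strand) encodes the beta chain of I-E. Both of its thresholded regions were promoter regions. The proximal region, 34305647 to 34305935, had signal 11.2 and −log10 p 43.5, with the summit 75 bp upstream. The upstream region, 34304751 to 34305182, had signal 10.01 and −log10 p 36.7 at 930 bp upstream. Of the 3 class II chain genes, H2-Eb1 thus had the lowest signal and −log10 p and H2-Aa the highest.

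The classes were close in signal and further apart in −log10 p. The strongest signal per gene had a median of 16.2 in class I (13.8 to 19.04, 5 genes with a region) and of 16.3 in class II (11.2 to 22.6, 4 genes), and the ranges overlap. Over all genes with a region the median was 17.5. The highest −log10 p per gene had a median of 180 in class I (155 to 297) and of 86.7 in class II (43.5 to 125), and these ranges do not overlap in the thresholded list. In the pseudoreplicated list they do, since Tap2 then enters class I at 23.4. The promoter regions of the whole list had a median −log10 p of 130, with quartiles of 68.8 and 222. The median width was 686 bp for class I regions and 432 bp for class II regions, where all regions of the list had a median of 637 bp. More than 1 summit was held by 4 of the 15 class I regions and 1 of the 7 in class II. The share over all regions is not given here. With no replicates and 10 genes chosen by name, the difference between the classes was not tested.

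**Figure D2:**
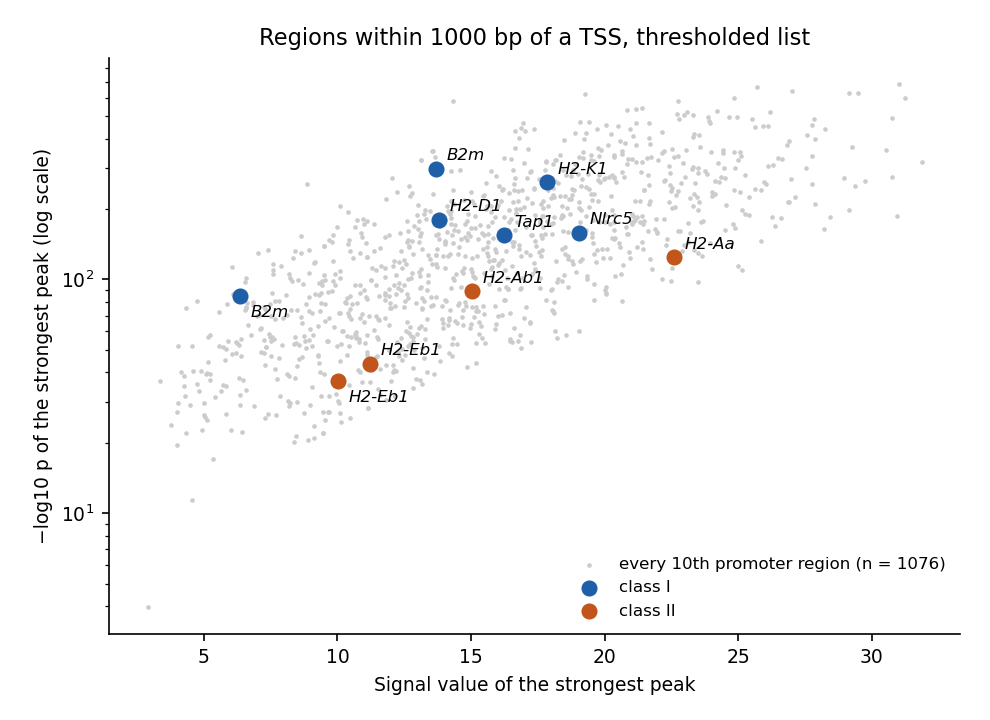
Signal value of the strongest peak (x axis) against its −log10 p (y axis, log scale) for regions within 1000 bp of a TSS in the thresholded list, with every 10th region of all genes in grey and the members labelled. The 6 class I promoter regions lie at a −log10 p of 84.6 (the B2m intronic region) to 297 and the 4 class II promoter regions at 36.7 to 125, so the ranges over single regions overlap.

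The pseudoreplicated list added regions to both classes, as it did over all genes. Promoter regions were held there by 6 of the 6 class I members and 3 of the 4 class II members, against 54.5% of all protein-coding genes. It held 34 regions for class I, 5.67 per gene, and 10 for class II, 2.5 per gene. In the thresholded list these were 2.5 and 1.75 per gene. Over all protein-coding genes the mean rose from 1.25 regions in the thresholded list to 2.38. Regions found in that list alone numbered 19 for class I, 16 of them at Tap2 and Nlrc5, with signals of 2.97 to 9.63, and 3 for class II, with signals of 6.75 to 10.2. Of the member regions nearest to the threshold, the B2m region 1772 bp upstream passed with an IDR of 0.0276, and a Nlrc5 intronic region at 94443296 to 94443591 failed with 0.0531. With a stricter IDR of 0.01 or below, 5 class I and 3 class II members kept a promoter region, against 44.7% of all protein-coding genes. At that limit 12 class I and 5 class II regions were left, and the share of all regions left is not given here.

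CpG content separated the thresholded promoter regions of the 2 classes. The ratio of observed to expected CpG ran from 0.499 to 0.855 over the 6 promoter regions of class I and from 0 to 0.281 over the 4 of class II, without overlap. Within class I, H2-K1 had the highest ratio (0.855), followed by H2-D1 (0.739), the main B2m region (0.659), Tap1 (0.649) and Nlrc5 (0.623). Within class II, the H2-Eb1 proximal region contained no CpG at all, and H2-Aa (0.251) and H2-Ab1 (0.281) were close to each other. All promoter regions of the list had a median of 0.749, with quartiles of 0.608 and 0.855, and 24.2% were under 0.6. The same ratio was also taken in the promoter windows searched for motifs, where the classes overlapped. At the 5′-most TSS, H2-K1, B2m, Tap1 and Nlrc5 had 0.548 to 0.753, but H2-D1 had 0.283. The class II chain genes had 0 to 0.266 there. Windows at other TSSs went as low as 0.0588 in H2-K1, 0.0399 in H2-D1 and 0.0845 in Nlrc5. The promoter windows of the 6 Ciita TSSs had ratios of 0.141 to 0.217, and those of the 3 Tap2 TSSs had 0.0894, 0.227 and 0.529.

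**Figure D3:**
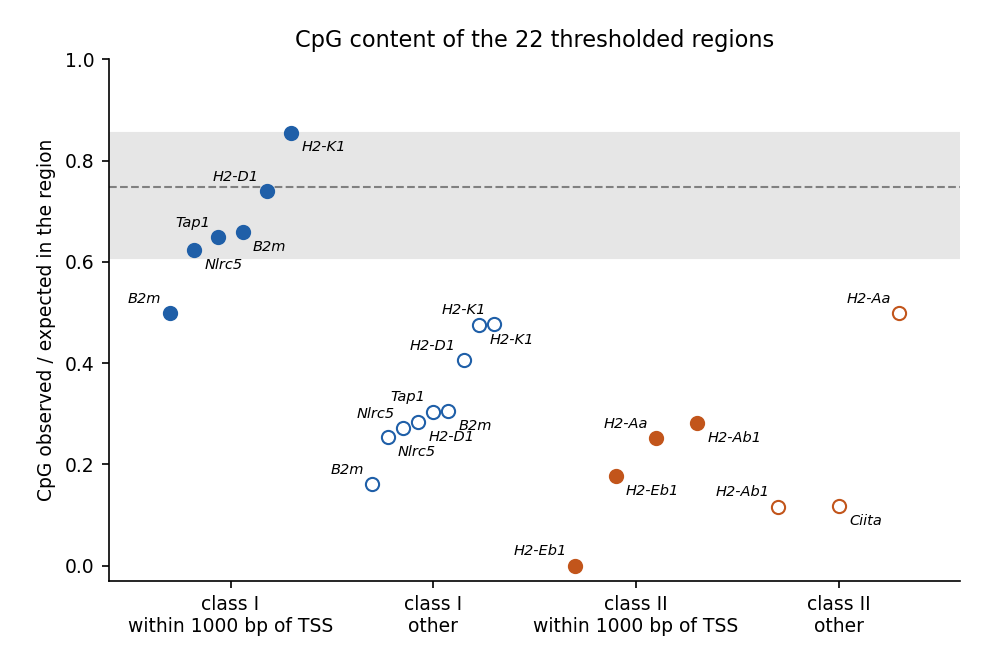
Observed over expected CpG in the 22 thresholded regions, by class and by whether the region lies within 1000 bp of a TSS, with the median (dashed line) and the quartiles (grey band) of all promoter regions. The class I promoter regions lie at 0.499 or above and the class II promoter regions at 0.281 or below, while the other regions of both classes lie at 0.499 or below.

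Outside the promoters, the 9 other regions of class I and the 3 of class II overlapped in CpG ratio. The X2 and Y boxes were present in both classes. A pair of X2 and Y boxes 10 to 30 bases apart stood within 100 bp of the summit in 6 of the 22 member regions, 3 of each class, and in 2.45% of all 26090 summit windows. In class I these were the promoter regions of H2-K1, H2-D1 and B2m, and in class II those of H2-Aa and the upstream regions of H2-Aa and H2-Eb1. In promoter windows the pair occurred in 3.09% of all protein-coding genes. Single matches are far more common: a Y box stood in 39.0% and an X2 box in 23.1% of all promoter windows, and an X1 box in 16.97%. Matches on both strands were counted, and a match is a description of the letters and not a measured binding site.

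The spacing was examined further after the sequences had been seen. X2 and Y boxes in the order and orientation printed above and exactly 20 bases apart were found in 21 of the 26090 summit windows, or 0.0805%. Of these 21 windows, 5 belonged to members (H2-K1, H2-D1, B2m, H2-Aa upstream and H2-Eb1 upstream), and a sixth lay at H2-M3, which encodes a class I heavy chain that presents formylated peptides. The 20 other spacings from 10 to 30 bases were found in 2 to 18 windows each, with a median of 7. Because the spacing was picked from the members' own sequences, the count is given as a description.

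**Figure D4:**
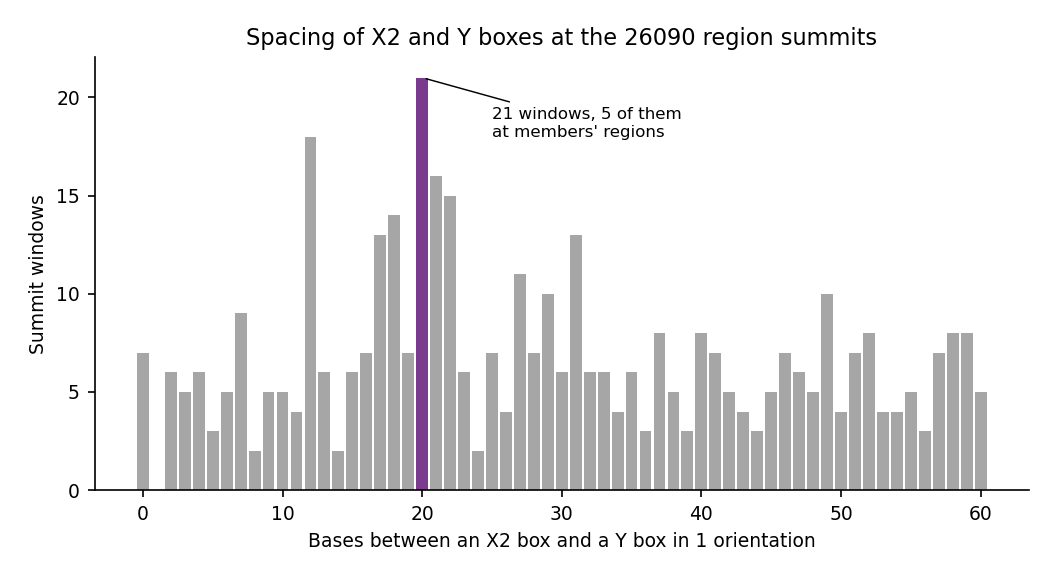
Number of summit windows (100 bp on either side), over all 26090 thresholded regions, that hold an X2 box followed by a Y box at each distance from 0 to 60 bases. The bar at 20 bases holds 21 windows, 5 of them at member regions, against 2 to 18 at the other spacings from 10 to 30 bases. This spacing was picked from the sequences of those member regions, so the height of its bar is a description only.

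Other motif matches were shared by several members. The B2m summit window also holds an ISRE, which starts at −138 from the TSS, and a Nlrc5 TSS at 94434391 is followed by an ISRE from 3 to 11 bp downstream. The H2-Aa promoter holds a match to the NF-kB site GGGANTTCC that starts at −131 from its TSS, a motif found in 1.91% of promoter windows. The H2-Ab1 upstream region holds another, 1 to 9 bp from its summit, where 2.47% of all summit windows have a match. ISRE matches occur in 7.97% of summit windows.

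The wider pathway was described with lists of related genes, each read beside the 48.2% of all protein-coding genes that have a promoter region. Among the genes that supply and load class I peptides, 11 of 11 had one. Erap1, which trims peptides in the endoplasmic reticulum, had 3 regions and a promoter signal of 19.4. Tapbp, which encodes tapasin and links the transporter to the heavy chain, also had 3, and its strongest promoter region (signal 9.09) had its summit nearer to Zbtb22. The strongest promoter regions of Psmb9, Psme2 and Pdia3 likewise had their summits nearer to Tap1, Rnf31 and Catsper2 respectively. Of these genes, Psme2, Pdia3, Rnf31 and Catsper2 were named after their values were seen. Psmb8 had 3 promoter regions, the strongest being the one inside Tap1 (10.6).

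Of 15 other class I heavy chain genes found in the annotation, 9 had a promoter region and 13 had at least 1 region. Mr1, which presents vitamin B metabolites, had a promoter signal of 23.03, Cd1d1, which presents lipids to NKT cells, had 18.5, H2-Q4 had 18.3 and H2-Q6 had 19.8. H2-M2 and H2-Q1 had none. Of the 31-base words of the H2-Q6 promoter region 75.6% have an exact copy elsewhere, and of those of Cd1d1 24.6%. The shares were 2.92% for Mr1 and 1.05% for H2-Q4. The H2-Q6 value is therefore uncertain, and that of Cd1d1 to a lesser degree.

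Of 8 other class II chain and accessory genes, 4 had a promoter region and 6 had at least 1 region. H2-DMa, a chain of the peptide exchange factor H2-DM, had a promoter signal of 28.5 and a −log10 p of 263, above every member in signal. Cd74, which encodes the invariant chain, had 15.2. H2-Oa, a chain of the H2-DM inhibitor H2-O, had 3 regions and Ctss, a protease that degrades the invariant chain, had 2, but none of these lay within 1000 bp of a TSS of its gene. Of the 2 beta chain genes whose products pair with that of H2-DMa, H2-DMb2, named after its values were seen, had a promoter region (signal 14.4, −log10 p 48.0) and H2-DMb1 had no thresholded region, nor did H2-Eb2. Across the whole class II interval from H2-Oa to H2-Eb2 (chr17:34092340-34341412), which also contains Tap1, Tap2, Psmb8 and Psmb9, 10 of 14 protein-coding genes had a promoter region, and 19 regions lay in the 249 kb.

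The factors that bind the shared promoter module all had promoter regions, 7 of 7. The strongest promoter regions of Rfxank and Nfya had their summits nearer to Borcs8 and Oard1 respectively, all named after their values were seen. Nfyc (signal 26.7) and Nfyb (21.9) encode subunits of NF-Y, Rfxap (15.4) encodes a subunit of RFX, and Creb1 (10.2) encodes a factor that binds X2 sites. On the route from interferon-gamma to the coactivator genes, 7 of 8 had a promoter region. Jak1, a kinase of the interferon-gamma receptor, had 15 regions and a promoter signal of 18.9, and Jak2, its partner kinase, had 8 regions and 8.15. Irf2, which binds ISREs, and Socs1, a feedback inhibitor of the kinases, also had 8 regions each, with promoter signals of 13.1 and 6.55. The exception was Ifngr2, a chain of the interferon-gamma receptor, whose strongest region (signal 11.9) lay 13121 bp from its TSS and which was named after its values were seen.

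**Figure D5:**
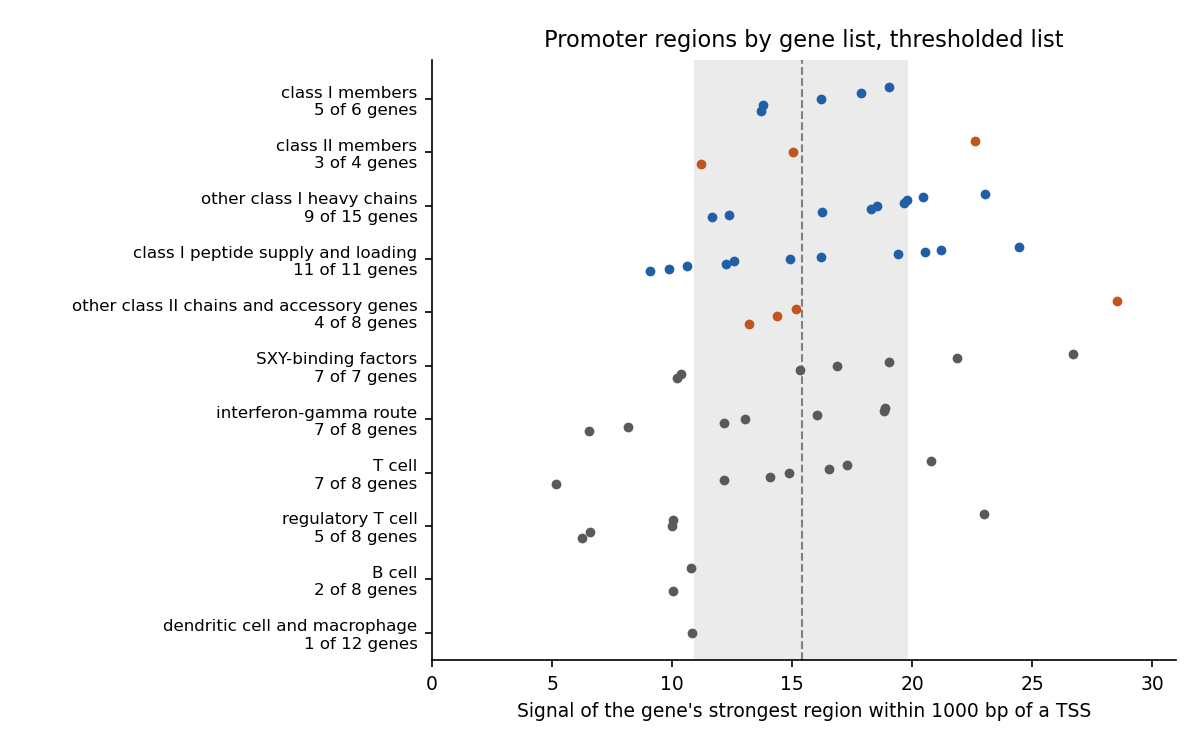
Signal of each gene's strongest region within 1000 bp of a TSS, by gene list, with the median (dashed line) and quartiles (grey band) of all promoter regions. The labels give the genes with a promoter region of those measured, from 11 of 11 for class I peptide supply and loading to 2 of 8 for B cell markers and 1 of 12 for dendritic cell and macrophage markers.

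Since class II molecules mark other cell types, the markers of those cells were set beside the class II regions. Of 16 T cell and regulatory T cell markers, all had a region and 12 had a promoter region. Of 20 markers of B cells, dendritic cells and macrophages, 3 had a promoter region (Pax5 at 10.8, Ebf1 at 10.03 and Spi1 at 10.8). These signals were below the strongest promoter signal of each of the 3 class II chain genes, 11.2 to 22.6. In −log10 p, Pax5 (26.9) and Ebf1 (25.4) were likewise below all 3, but Spi1 (68.1) was above H2-Eb1 (43.5). The 5 regulatory T cell markers with a promoter region had a median promoter signal of 9.99, and the 7 T cell markers with one had 14.9. Promoter signals as low as those of Pax5, Ebf1 and Spi1 thus also occurred among regulatory T cell markers. Away from promoters, markers of dendritic cells and macrophages had regions of higher signal, among them Batf3 (21.4), Zbtb46 (20.6), Xcr1 (20.3), Spi1 (18.8) and Cd209a (18.2). All were named after their values were seen, and all exceeded the H2-Ab1 and H2-Eb1 promoter regions in signal. Their summits lay 4785 bp (Spi1) to 27802 bp (Batf3) from a TSS of the gene, to which the assignment rule alone credits them. By −log10 p, Zbtb46 (177) and Xcr1 (123) stood above the H2-Ab1 promoter region (89.0). Batf3 (83.3), Spi1 (61.5) and Cd209a (56.4) stood below it and above H2-Eb1. A region of any kind was held by 12 of the 20, a share near the 56.2% of all protein-coding genes. Those with none, 8 in all, included Ms4a1, Itgax, Csf1r and Lyz2, and in the pseudoreplicated list 4 of the 20 had none and 6 had a promoter region, where 54.5% of all protein-coding genes have one. At an IDR of 0.01 or below, 0 of the 8 B cell markers kept a promoter region. Of the 12 dendritic cell and macrophage markers 1 did, as in the thresholded list. The share of all protein-coding genes at that limit was 44.7%. The part of such cells in the class II signals was not tested.

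The ranked list gives the −log10 p of each peak in the 2 inputs that the IDR compared, whose origin the sources used here do not state. All 22 member regions had values within 2-fold of each other in the 2 inputs, as did 98.2% of all regions, and 19 were within 1.5-fold, against 84.7% of all regions. The ratio of input 1 to input 2 ran from 0.581 at the H2-Aa upstream region to 1.72 at the B2m intronic region. Input 1 was higher at 11 of the 22.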

How the data were processed

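ATAC-seq peak lists of 2 libraries of activated regulatory T cells, technical replicates of 1 biological replicate, were analysed: an IDR ranked list, a thresholded list and a pseudoreplicated list, all on mm10 and each covering both libraries. Per the labels' accompanying text the lists derive from 1 alignment. Aligner, peak caller, filters and any shift of reads for the transposase: not given in the sources used here. A deposited signal value is the peak caller's enrichment over a reference that is not stated. The deposited −log10 columns hold the p-value of each peak and, in the ranked list, the IDR and the value in each input. The deposited score, up to 1000, follows from the IDR in the ranked and thresholded lists, and every peak of the thresholded list has an IDR of 0.05 or below. These are the authors' values and were used only to describe, rank and filter peaks within a list.

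Peaks overlapping by 1 bp or more were merged (48668 peaks into 26090 regions, and 77257 into 50037 in the pseudoreplicated list), and each region took the values and summit of its strongest peak. TSSs were those of protein-coding transcripts of GENCODE M21 on chromosomes 1 to 19, X and Y. All 21 chromosomes of the RefSeq GRCm38.p6 sequence held their peaks, and 35 of 35 member first exons were identical in both sources. Motifs were searched on both strands from 250 bp before to 50 bp after a gene's TSS and within 100 bp of summits, and copies were exact 31-base words. All 10 members, the genes starting nearest to them, and of each pathway list up to 4 genes with most regions and up to 4 with none could be named. H2-T10 and Ifi30 were not matched by symbol in the annotation used here. The members and lists were chosen with earlier results of these data known. Alternatives covered the list, the IDR, merging, assignment, the promoter window and the TSSs. Assignment was checked on simulated data. Python 3.11.15, numpy 2.4.6, pandas 2.3.3 and scipy 1.17.1 were used. No test was run, since there is 1 group and 1 biological replicate.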

Additional observations from a re-analysis of the deposited data

How the results depend on the processing

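The counts of members with a promoter region, 5 of class I and 3 of class II, moved by at most 1 under the alternatives tried. Class I reached 6 in the pseudoreplicated list, and class II dropped to 2 when the 5′ end of the gene was the only TSS, because H2-Ab1 begins with a non-coding transcript. Class I regions rose from 15 to 34 in the pseudoreplicated list, where the mean over all protein-coding genes rose from 1.25 to 2.38. Regions with a summit inside the gene body alone numbered 4 in class I and 3 in class II. The median strongest signal of class I, 16.2, was 15.1 in the pseudoreplicated list, 9.52 for regions in the gene body, 17.9 with the gene's 5′ end as the only TSS, and 13.9 with the TSSs of every transcript, an alternative chosen after seeing the data. That of class II, 16.3, was 15.03 when regions went to the nearest TSS only, which removes the Ciita region. The other values stayed within 1.5 times for counts, or were identical for medians. No paired analysis was possible because the lists pool both libraries and no test was run, and for the same reason no replicate could be left out. The unknown depth limits what the absence of a region at Ciita or Tap2 can show.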

Other observations

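Away from the members, the summit windows with X2 and Y boxes exactly 20 bases apart included promoter regions of genes outside antigen presentation, among them Xbp1 (signal 16.6), Per1 (5.81), Nrarp (12.1), Ubn1 (19.9) and Tfdp2 (20.6). The farthest from a TSS lay 163519 bp away, with Cdkn1c as the nearest gene (21.3). Within the MHC of chromosome 17 the non-member windows were those of Trim26 (19.9), Znrd1as (22.3) and H2-M3 (13.2). These genes were named after their values were seen.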
